A study of Mus musculus with 23 samples.

Results

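Prostaglandins are made from arachidonic acid, and the 10 genes described here encode enzymes that make or break down prostaglandins and receptors that sense them. They are *Pla2g4a*, *Ptgs1*, *Ptgs2*, *Ptges*, *Ptgis*, *Hpgds*, *Hpgd*, *Ptger2*, *Ptger3* and *Ptger4*, chosen by symbol from a table of 55449 genes. RNA was sequenced from the colon of male C57BL/6 mice of the genotype Cdx2Apc f/w that ate a 60% high-fat diet (HFD) and were 6 to 8 weeks old at the start. A floxed copy of the tumor suppressor gene *Apc* was removed by a Cre recombinase driven by the *Cdx2* promoter, so every group carried the *Apc* deletion in the cells that express this promoter. The mice were colonized after a short course of antibiotics with *B. fragilis* 638R, either BF BSHlow, named BF638R bsh- in the labels and carrying an empty vector, or BF BSHhigh, named BF638R bsh+ and overexpressing the bile salt hydrolase gene *bsh* of another *B. fragilis* strain. No group with intact *Apc*, on another diet or without these bacteria was part of the comparisons.

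The 23 libraries form 6 groups. After 12 weeks there were 4 libraries of BF BSHlow non-tumor tissue, 4 of BF BSHhigh non-tumor tissue, 4 of BF BSHlow tumor and 3 of BF BSHhigh tumor, and after 2 weeks there were 4 libraries of normal colon for each strain. The labels do not say whether replicates came from separate animals, or whether tumor and non-tumor tissue came from the same mice. The main tests treat the libraries as unpaired. The study describes its tumor and non-tumor libraries as independent samples with pooled sample sizes, and whether animals were pooled is not given in the sources used here. The p-values thus measure the spread between these libraries, which may be partly technical. Total expected counts per library ranged from 12401388 to 17903008. No column of the deposited table is named as a BF BSHhigh tumor, and the 3 columns used as this group bear names of BF BSHlow tumors that already stand over other columns. They were identified as a group through a supplementary data file of the study and are called replicates a, b and c, and every comparison that uses BF BSHhigh tumors rests on that.

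In the usual account of the pathway, cytosolic phospholipase A2 releases arachidonic acid from membranes, the cyclooxygenases convert it to prostaglandin H, and terminal synthases turn that into prostaglandin E, prostacyclin or prostaglandin D. Prostaglandin E acts on the EP receptors of epithelial, immune, muscle and nerve cells, and the dehydrogenase encoded by *Hpgd* inactivates it. In the intestine the pathway is known for its part in mucosal protection, inflammation and the growth of adenomas, and inhibitors of the cyclooxygenases lower the number of polyps in people and mice with *APC* mutations.

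The identifiers and symbols in the table matched GENCODE M21, whose coordinates are on GRCm38 (mm10). *Pla2g4a* (ENSMUSG00000056220.14) lies at chr1:149829618-149961290 on the minus strand, and *Ptgs2* (ENSMUSG00000032487.8) lies close to it at chr1:150100031-150108227 on the plus strand. *Ptgs1* (ENSMUSG00000047250.13) lies at chr2:36230426-36252272 on the plus strand, *Ptges* (ENSMUSG00000050737.13) at chr2:30889471-30929863 on the minus strand and *Ptgis* (ENSMUSG00000017969.13) at chr2:167191805-167240604 on the minus strand. *Hpgds* (ENSMUSG00000029919.5) lies at chr6:65117293-65144908 on the minus strand and *Hpgd* (ENSMUSG00000031613.9) at chr8:56294585-56321043 on the plus strand. Of the receptor genes, *Ptger2* (ENSMUSG00000037759.6) lies at chr14:44988195-45003820 on the plus strand, *Ptger3* (ENSMUSG00000040016.16) at chr3:157566892-157645888 on the plus strand and *Ptger4* (ENSMUSG00000039942.15) at chr15:5206661-5244187 on the minus strand. Annotated genes overlap 8 of the 10, on the same strand for *Ptges* (*Gm13400*) and *Hpgd* (*Gm45540*), and none overlaps *Ptgs2* or *Ptger3*. The library kit marks strand but the counting by strand is not given in the sources used here, so reads of a gene and of an overlapping antisense gene may not be told apart.

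Promoters are shown for the inducible pair *Ptgs2* and *Ptges* and for *Hpgd*, which make and break down prostaglandin E and lay on opposite sides in tumors. The RefSeq promoter table (GRCm38.p6), with 250 bases before and 50 bases after a gene's start, holds 9 of the 10 genes and no entry for *Ptgis*. Capitals mark matches on either strand to the cyclic AMP response letters TGACG, the E-box letters CACGTG, the TATA-box letters TATAAA, the GC-box letters GGGCGG or the TCF letters CTTTGA, and each sequence is written 5′ to 3′ on the strand of its gene.
Ptgs2, chr1:150099781-150100080, plus strand: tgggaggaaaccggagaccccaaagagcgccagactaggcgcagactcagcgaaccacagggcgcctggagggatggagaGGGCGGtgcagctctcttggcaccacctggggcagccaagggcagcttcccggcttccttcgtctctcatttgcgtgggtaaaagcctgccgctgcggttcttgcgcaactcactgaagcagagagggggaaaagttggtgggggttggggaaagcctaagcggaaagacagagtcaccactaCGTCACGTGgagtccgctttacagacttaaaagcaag
Ptges, chr2:30903248-30903547, minus strand: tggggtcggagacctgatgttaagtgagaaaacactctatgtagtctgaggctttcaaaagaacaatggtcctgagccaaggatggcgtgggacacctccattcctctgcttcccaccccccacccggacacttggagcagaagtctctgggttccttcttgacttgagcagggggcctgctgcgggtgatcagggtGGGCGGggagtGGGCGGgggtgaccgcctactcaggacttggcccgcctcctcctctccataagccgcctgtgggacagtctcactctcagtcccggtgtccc
Hpgd, chr8:56294302-56294601, plus strand: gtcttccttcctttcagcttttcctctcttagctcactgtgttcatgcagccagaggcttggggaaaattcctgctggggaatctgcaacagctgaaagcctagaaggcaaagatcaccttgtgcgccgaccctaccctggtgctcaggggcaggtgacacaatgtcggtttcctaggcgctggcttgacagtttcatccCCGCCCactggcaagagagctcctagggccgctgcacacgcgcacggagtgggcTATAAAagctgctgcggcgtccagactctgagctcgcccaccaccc
The *Ptgs2* promoter held GGGCGG at position -170 from the start and TGACG on the other strand at position 14, which overlaps CACGTG at position 17. The *Ptges* promoter, whose start lies inside the annotated span of the gene, held GGGCGG at positions -53 and -42. The *Hpgd* promoter held GGGCGG on the other strand at position -50 and TATAAA at position 5, counted from the RefSeq start, which lies before the annotated start of the gene given above, so that TATAAA also lies before the annotated start. Of 32851 promoters of this length, 35.7% held GGGCGG, 20.8% TGACG, 13.6% TATAAA and 7.15% CACGTG on either strand. CTTTGA was in 16% of all promoters and in 0 of the 9. The GC content of the promoters shown was 59.3% for *Ptgs2*, 60% for *Ptges* and 58% for *Hpgd*, and the median of all promoters was 52.7%. A match is a description, not a site or a cause.

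Before the genes were compared, the tissues were checked against markers. The epithelial marker *Epcam* was at 1259 to 1568 CPM (counts relative to the scaled library size) in non-tumor tissue, 826 to 1282 CPM in tumors and 1709 to 2015 CPM at 2 weeks, so each library held much epithelial RNA. The WNT target *Axin2*, which responds to loss of *Apc*, was at 190 to 355 CPM in the 7 tumors and at 17.7 to 31.4 CPM in the 8 non-tumor libraries, without overlap. *Cdx2*, a transcription factor of the intestine, was at 307 to 418 CPM at 2 weeks, 6.34 to 60.5 CPM in 12-week non-tumor tissue and 0.257 to 27.6 CPM in tumors. *Car1*, a carbonic anhydrase of colonocytes, was at 6595 to 18575 CPM at 2 weeks and at 60.1 to 707 CPM in 12-week non-tumor tissue. The labels give no position along the colon, so time, age and the place sampled cannot be told apart between 2 and 12 weeks.

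Single libraries stood apart from their groups, and those named here were picked after their values were seen. Replicate 2 of the BF BSHlow non-tumor tissues had the highest summed level of 6 smooth muscle markers (8473 CPM, the others 1513 to 3928 CPM) and of 6 fibroblast markers (3260 CPM, the others 314 to 1220 CPM). Replicate 1 of the BF BSHhigh non-tumor tissues had the highest summed level of 6 neutrophil markers (382 CPM, the others 225 to 239 CPM) and 66.8 CPM of *Il1b*, an inflammatory cytokine. Replicate 4 of the BF BSHlow non-tumor tissues had the lowest summed levels of 9 mast cell markers (40.1 CPM, the others 64.9 to 66.5 CPM), 7 macrophage markers (67.7 CPM, the others 183 to 245 CPM), 5 B cell markers (10.3 CPM, the others 80.2 to 161 CPM) and 6 T cell markers (6.39 CPM, the others 15.8 to 29.1 CPM). Of the sums named for these non-tumor libraries, the mast cell sum of replicate 4 and the neutrophil sum passed Dixon's limit for a single library, and the macrophage, B cell and T cell sums of replicate 4 and the smooth muscle and fibroblast sums of replicate 2 did not. Replicate a of the BF BSHhigh tumors had 4223 CPM of 6 goblet cell markers, while the other two had 1241 and 499 CPM and the 4 BF BSHlow tumors 50.1 to 112 CPM. Results are given with all libraries, and those that rest on these libraries also without them. In fits without the 2 non-tumor libraries that stand apart, replicate 2 of BF BSHlow and replicate 1 of BF BSHhigh are left out.

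Levels are given as CPM, with 1 TMM scaling over the 23 libraries. Differences were tested with edgeR's quasi-likelihood test over all genes with enough counts, with Benjamini-Hochberg adjustment over those genes, and a gene was counted as higher or lower when its adjusted p was under 0.05 and its log2 fold change was over 1 in size, the thresholds of the study. The tests of tumor against non-tumor tissue, of the strains at 12 weeks and of 12 against 2 weeks use overlapping sets of libraries, so their results are not independent of each other. For each gene the standard error (SE) of the log2 fold change follows it. How many of all genes separate the groups without overlap was not counted. A lack of overlap given here thus describes the gene named and does not set it apart from other genes.

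Per kilobase of exon, *Hpgd* was the most abundant of the 10 genes in normal and non-tumor tissue. At 2 weeks its median was 383 CPM per kb (185 to 569), followed by *Ptger4* with 6.6 (4.22 to 8.48) and *Pla2g4a* with 6.33 CPM per kb (5 to 9.38), whose ranges overlap. *Ptgs2* stood near the end of the order at 2 weeks, with a median of 0.241 CPM per kb (0.161 to 0.551), above only *Ptger2* with 0.0949. In 12-week non-tumor tissue, *Hpgd* came first with 109 CPM per kb (73.6 to 132) and *Pla2g4a* followed with 10.6 (8.36 to 12.3). *Ptgs2* had a median of 1.27 CPM per kb (0.324 to 5.49) in non-tumor tissue, a range that overlapped those of all the others except *Hpgd* and *Pla2g4a*. In tumors *Ptgs2* came first with 16.1 CPM per kb (6.48 to 36.3), then *Ptges* with 12.2 (7.34 to 17.8), *Hpgd* with 6.58 (4.36 to 14.6) and *Ptgs1* with 6.11, and these ranges overlap from one gene to the next. *Ptger3* was last in tumors, with a median of 0.0168 CPM per kb (0 to 0.173).

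**Figure D1:**
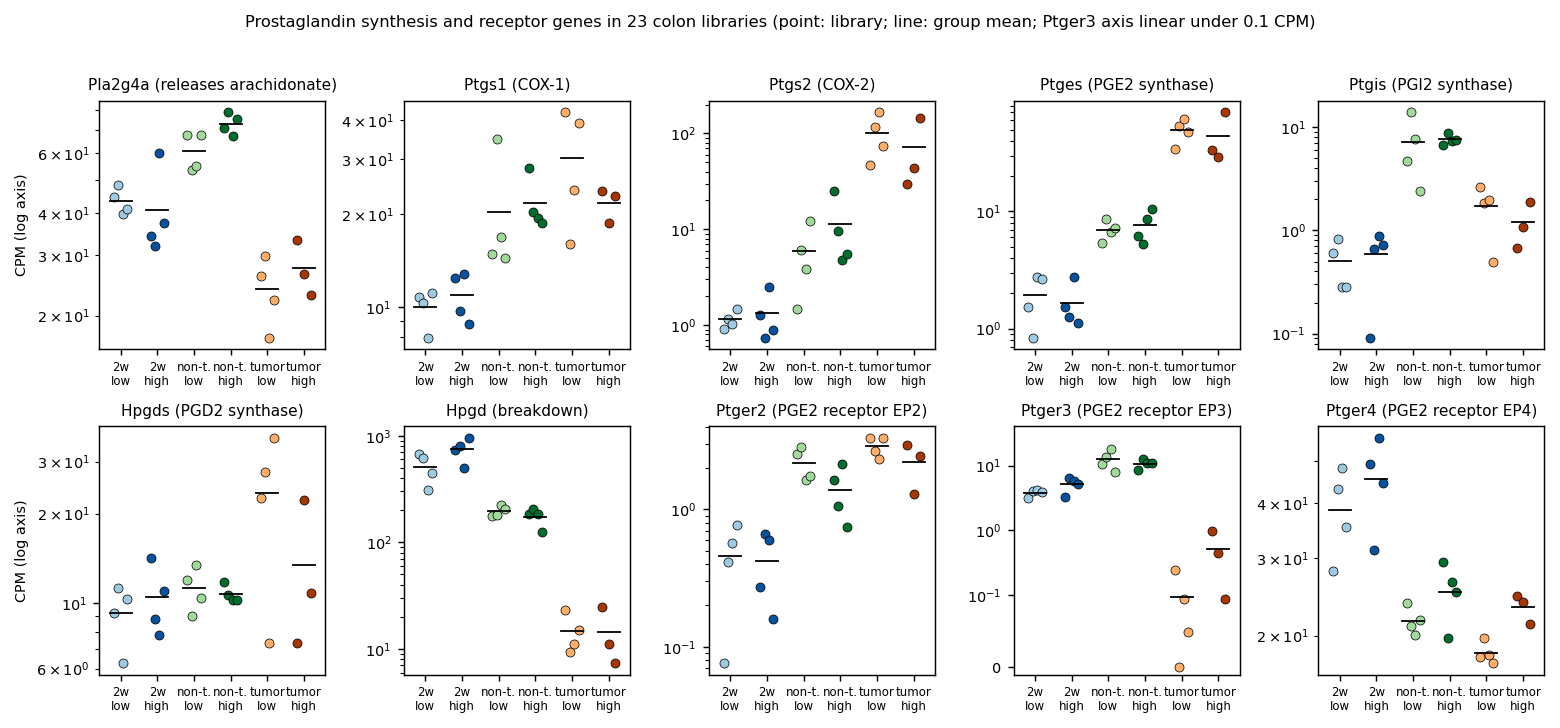
Level of each of the 10 genes in every library, in CPM on a log axis (the *Ptger3* axis is linear under 0.1 CPM), by group, with a line at each group mean. *Ptgs2* and *Ptges* are higher in all 7 tumors than in all 8 non-tumor libraries, and *Hpgd*, *Ptger3* and *Pla2g4a* are lower in all 7. How many of all genes separate the tissues as fully was not counted.

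Tumor was compared with non-tumor tissue at 12 weeks to see how the pathway differs in tumors that arise after *Apc* loss. With both strains averaged, 2 of the 10 genes were higher (*Ptgs2* and *Ptges*), beside 16.4% of all 16455 genes tested, and 4 were lower (*Pla2g4a*, *Ptgis*, *Hpgd* and *Ptger3*), beside 18.4% of all genes. The shares of genes past the thresholds were thus large in the whole transcriptome. The median log2 fold change was 0.05 over the 10 genes and 0.04 over all genes. In BF BSHlow mice, 3 were higher and 4 lower, beside 16.7% and 19.5% of all genes, and in BF BSHhigh mice 2 were higher and 4 lower, beside 14.6% and 14.8% of all genes. In bulk tissue, fewer cells of a type and less RNA per cell cannot be told apart, which holds for every difference given here.

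*Pla2g4a* encodes cytosolic phospholipase A2, which frees arachidonic acid. Its level was 67.5, 53.4, 55 and 67.4 CPM in replicates 1 to 4 of the BF BSHlow non-tumor tissues and 26.2, 29.9, 17.2 and 22.2 CPM in the BF BSHlow tumors. With BF BSHhigh it was 71, 78.8, 67.2 and 75.3 CPM in non-tumor tissue and 33.3, 26.4 and 22.9 CPM in tumors a, b and c. Every tumor lay below every non-tumor library, and the highest tumor was in the BF BSHhigh group. The log2 fold change was -1.39 (SE 0.12, adjusted p = 1.3e-07 by edgeR's quasi-likelihood test), a 2.62-fold lower level in 7 of 7 tumors, with -1.37 in BF BSHlow and -1.41 in BF BSHhigh mice.

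The cyclooxygenases *Ptgs1* and *Ptgs2* carry out the committed step of prostaglandin synthesis, the first in many resting tissues and the other after induction. *Ptgs2* was at 1.48, 6.07, 3.82 and 12.2 CPM in the BF BSHlow non-tumor tissues and at 46.7, 116, 166 and 73.7 CPM in the BF BSHlow tumors. In BF BSHhigh mice it was at 25.1, 9.53, 4.73 and 5.54 CPM in non-tumor tissue and at 29.7, 44.1 and 144 CPM in tumors a, b and c. All tumors lay above all non-tumor libraries, but the lowest tumor (BF BSHhigh replicate a) was close to the highest non-tumor library (BF BSHhigh replicate 1), and levels within each group varied several-fold. *Ptgs2* was 10.3-fold higher in tumors (log2 fold change 3.37, SE 0.51, adjusted p = 3.5e-05 by edgeR's quasi-likelihood test, higher in 7 of 7 tumors). The difference was 4.05 on the log2 scale in BF BSHlow mice (SE 0.73, adjusted p = 2.4e-04 by edgeR) and 2.68 in BF BSHhigh mice (SE 0.71, adjusted p = 0.00542 by edgeR). In BF BSHlow mice it was 4.69 without replicate 4 of the non-tumor tissues. In BF BSHhigh mice it was 3.44 without replicate 1 of the non-tumor tissues and 1.71 without tumor c, where edgeR's adjusted p was 0.0556 (range over all alternatives 9.9e-04 to 0.0556).

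Markers of inflammatory cells were measured beside *Ptgs2*. Of 6 neutrophil markers tested, 5 were higher in tumors and *Ly6g* was lower (log2 fold change -3.45, SE 0.20, adjusted p = 4.1e-09 by edgeR). Their summed level was 157, 144, 194 and 191 CPM in BF BSHlow and 382, 226, 225 and 239 CPM in BF BSHhigh non-tumor tissue, where *Ly6g* was the most abundant. In tumors it was 125, 53.3, 96.5 and 378 CPM for BF BSHlow and 343, 157 and 461 CPM for BF BSHhigh, with *S100a9* the most abundant. *Ly6g* alone held 139 to 253 CPM in non-tumor tissue and 5.55 to 76.7 CPM in tumors, so the sums do not describe the 5 other markers. *S100a9* was at 0.445 to 73.7 CPM in non-tumor tissue and 24.2 to 223 CPM in tumors. No marker was at 0 in all libraries of a tissue, and *Cxcr2* was under 1 CPM in all BF BSHlow non-tumor libraries. Among 12 genes that encode inducers of *Ptgs2* or their signaling, 7 were higher and 1 lower in tumors, with a median of 1.14 on the log2 scale (0.04 over all genes). The cytokine gene *Tnf* had a log2 fold change of 2.28 (SE 0.29, adjusted p = 6.8e-06 by edgeR), and *Tlr2*, a receptor for bacterial lipoproteins, had 1.54 (SE 0.15, adjusted p = 3.9e-07 by edgeR). *Tlr4*, the receptor for lipopolysaccharide, fell by 1.17 (SE 0.10, adjusted p = 7.7e-08 by edgeR). *Il1b* ranged from 1.48 to 66.8 CPM in non-tumor tissue and from 29.1 to 177 CPM in tumors. The part of these cells and signals in the *Ptgs2* result was not tested.

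*Ptgs1* was at 14.8, 34.9, 16.9 and 14.4 CPM in the BF BSHlow non-tumor tissues and at 42.5, 16, 23.8 and 39.2 CPM in the BF BSHlow tumors. The BF BSHhigh levels were 28.1, 20.2, 19.4 and 18.7 CPM in non-tumor tissue and 23.7, 18.7 and 22.8 CPM in tumors. The tissues overlapped, and the log2 fold change was 0.29 (SE 0.23, adjusted p = 0.277 by edgeR's quasi-likelihood test). Replicate 2 of the BF BSHlow non-tumor tissues, which stood apart in smooth muscle and fibroblast markers, also had the highest *Ptgs1* level of the non-tumor tissues. Without it and replicate 1 of the BF BSHhigh non-tumor tissues, the log2 fold change was 0.55 (adjusted p = 0.0259 by edgeR), still within the fold limit.

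*Ptges* encodes the inducible microsomal synthase of prostaglandin E. It was at 5.41, 8.59, 6.68 and 7.23 CPM in the BF BSHlow non-tumor tissues and at 34.1, 54.1, 61.1 and 47.9 CPM in the BF BSHlow tumors. With BF BSHhigh it was at 6.13, 5.29, 8.61 and 10.4 CPM in non-tumor tissue and at 33.2, 28.9 and 70.1 CPM in tumors. The lowest tumor was well above the highest non-tumor library, and tumor c was the highest for *Ptges* and, among the BF BSHhigh tumors, for *Ptgs2*. *Ptges* was 6.33-fold higher (log2 fold change 2.66, SE 0.22, adjusted p = 6.8e-08 by edgeR's quasi-likelihood test, 7 of 7 tumors), with 2.80 in BF BSHlow and 2.53 in BF BSHhigh mice. The cytosolic synthase gene *Ptges3* had a log2 fold change of 0.87 (SE 0.07, adjusted p = 8.2e-08 by edgeR), within the fold limit.

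*Ptgis*, the prostacyclin synthase of vessel walls and smooth muscle, was at 4.67, 14, 7.7 and 2.39 CPM in the BF BSHlow non-tumor tissues and at 2.65, 1.85, 1.96 and 0.489 CPM in the BF BSHlow tumors. The BF BSHhigh levels were 6.75, 8.9, 7.4 and 7.56 CPM in non-tumor tissue and 0.672, 1.07 and 1.91 CPM in tumors. Of the 7 tumors, 6 lay below every non-tumor library, and BF BSHlow tumor 1 lay above replicate 4 of the BF BSHlow non-tumor tissues. *Ptgis* was 5.11-fold lower in tumors (log2 fold change -2.35, SE 0.40, adjusted p = 1.0e-04 by edgeR's quasi-likelihood test). All 6 smooth muscle markers tested were also lower in tumors, with a median of -4.94 on the log2 scale, as for *Myh11*, a myosin of smooth muscle (-5.13, SE 0.34, adjusted p = 1.1e-08 by edgeR). Their summed level was 1869, 8473, 3928 and 1513 CPM in the BF BSHlow and 4343, 3373, 3937 and 3286 CPM in the BF BSHhigh non-tumor tissues, where *Tagln* was the most abundant in 7 of 8 libraries and *Myh11* in the other one, BF BSHlow replicate 3. It was 170, 204, 251 and 117 CPM in the BF BSHlow tumors and 343, 215 and 177 CPM in the BF BSHhigh tumors, where *Acta2* was the most abundant, and none of the 6 was at 0 in all libraries of a group. The order of libraries by *Ptgis* and by the smooth muscle sum was the same in BF BSHlow non-tumor tissue and BF BSHlow 2-week colon. It was opposite in BF BSHhigh tumors. In BF BSHhigh 2-week colon the highest library (replicate 3) and the lowest (replicate 1) were the same for both. In BF BSHlow tumors replicate 4 was lowest for both, while the highest was tumor 1 for *Ptgis* and tumor 3 for the sum. In BF BSHhigh non-tumor tissue the library with the highest sum (replicate 1) had the lowest *Ptgis* level. The part of smooth muscle in the *Ptgis* result was not tested.

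*Hpgds*, the hematopoietic synthase of prostaglandin D found in mast cells and some other immune cells, was at 11.9, 9.05, 13.4 and 10.4 CPM in the BF BSHlow non-tumor tissues and at 22.6, 27.7, 7.3 and 36.1 CPM in the BF BSHlow tumors. The BF BSHhigh levels were 11.8, 10.6, 10.2 and 10.2 CPM in non-tumor tissue and 7.29, 22.3 and 10.8 CPM in tumors. Non-tumor levels were close to each other, while the tumors lay on both sides of them. With both strains averaged the log2 fold change was 0.69 (SE 0.29, adjusted p = 0.0437 by edgeR's quasi-likelihood test), within the fold limit. In BF BSHlow mice alone it was 1.05 (SE 0.40, adjusted p = 0.03 by edgeR), with 3 of 4 tumors above all non-tumor libraries and tumor 3 below them. This call was lost when BF BSHlow non-tumor replicate 1, 2 or 4 or tumor 2 or 4 was left out, with limma-voom (0.85, adjusted p = 0.141), with the replicate number as a block (0.89, adjusted p = 0.146 by edgeR) and without the 2 non-tumor libraries that stand apart (0.95, adjusted p = 0.0886 by edgeR). The log2 fold change without a single library ranged from 0.75 to 1.34 (adjusted p over all alternatives 0.00144 to 0.146). In BF BSHhigh mice it was 0.33 (SE 0.42, adjusted p = 0.53 by edgeR), and the difference between the strains was not past the thresholds (-0.72, SE 0.58, adjusted p = 0.793 by edgeR's interaction test). Of 9 mast cell markers tested, 5 were higher and 2 lower in tumors, among them *Mcpt1* (3.63, SE 0.43, adjusted p = 3.3e-06 by edgeR) and *Kit* (-1.62, SE 0.18, adjusted p = 1.3e-06 by edgeR). The summed level of the 9 was 64.9, 65.5, 66.5 and 40.1 CPM in BF BSHlow non-tumor tissue and 88.8, 26.4, 75 and 56.6 CPM in BF BSHlow tumors, and in BF BSHhigh mice 79.3, 118, 54.8 and 56.7 CPM and 56, 39.9 and 74.2 CPM. *Kit* was the most abundant in non-tumor tissue and in BF BSHhigh tumors and *Mcpt1* in 2 of 4 BF BSHlow tumors, *Tpsab1* was under 1 CPM in all libraries of each group, and their part in the *Hpgds* values was not tested.

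*Hpgd* encodes 15-hydroxyprostaglandin dehydrogenase, the enzyme that starts the breakdown of prostaglandin E. It was at 177, 182, 222 and 206 CPM in the BF BSHlow non-tumor tissues and at 23.2, 9.39, 11.1 and 15.1 CPM in the BF BSHlow tumors. The BF BSHhigh levels were 183, 206, 184 and 124 CPM in non-tumor tissue and 24.5, 11.1 and 7.34 CPM in tumors. The highest tumor was far below the lowest non-tumor library in both strains. *Hpgd* was 12.9-fold lower (log2 fold change -3.69, SE 0.27, adjusted p = 3.0e-08 by edgeR's quasi-likelihood test, 7 of 7 tumors), with -3.75 in BF BSHlow and -3.62 in BF BSHhigh mice. Without BF BSHhigh tumor a, which also had the most goblet cell and colonocyte transcripts, the BF BSHhigh value was -4.25.

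Differentiated epithelium differed between the tissues as well. Of 10 colon epithelium markers tested, 8 were lower in tumors and 0 higher by edgeR, with a median of -2.52, among them the chloride exchanger *Slc26a3* (-7.95, SE 0.55, adjusted p = 1.5e-08 by edgeR). Their summed level was 4410, 3818, 5685 and 6813 CPM in BF BSHlow and 5137, 4509, 4411 and 4393 CPM in BF BSHhigh non-tumor tissue, and 1207, 1763, 1655 and 1090 CPM in BF BSHlow and 2591, 1688 and 1667 CPM in BF BSHhigh tumors. *Epcam* was the most abundant of them at 12 weeks, and *Slc26a3*, *Car4* and *Aqp8* were under 1 CPM in all 4 BF BSHlow tumors. All 6 goblet cell markers were lower in tumors, with a median of -4.97. Their sum was 14983, 12200, 11933 and 16433 CPM in BF BSHlow and 32493, 20123, 15415 and 17756 CPM in BF BSHhigh non-tumor tissue, and 112, 106, 87.2 and 50.1 CPM in BF BSHlow and 4223, 1241 and 499 CPM in BF BSHhigh tumors. *Fcgbp* was the most abundant goblet cell marker in most 12-week libraries, and none was at 0 in all libraries of a group. The part of these cells in the results for *Hpgd*, *Pla2g4a* and *Ptger3* was not tested.

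Of the receptors, *Ptger3* encodes EP3, which couples mainly to inhibitory G proteins. It was at 10.4, 13.5, 18.1 and 7.81 CPM in the BF BSHlow non-tumor tissues and at 0.245, 0, 0.0954 and 0.0489 CPM in the BF BSHlow tumors, which hold 5, 0, 2 and 1 counts. With BF BSHhigh it was at 8.5, 12.6, 11 and 10.8 CPM in non-tumor tissue and at 0.983, 0.447 and 0.0954 CPM in tumors, which hold 19, 10 and 2 counts. *Ptger3* was thus close to the limit of detection in tumors and well measured in each non-tumor library. The fitted log2 fold change was -5.65 (SE 0.45, adjusted p = 5.2e-08 by edgeR's quasi-likelihood test, lower in 7 of 7 tumors). In summed counts, 762 in non-tumor tissue against 8 in tumors of BF BSHlow mice gave a 127-fold lower level per scaled count (95% exact Poisson interval 64 to 295). For BF BSHhigh, 664 against 31 counts gave a 21.7-fold lower level (15.1 to 32.2). These intervals cover counting error only. The fitted difference was -6.90 in BF BSHlow mice (-7.81 without tumor 1) and -4.41 in BF BSHhigh mice (-5.26 without tumor a), and the test of the strain difference is given with the strains.

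*Ptger4* encodes EP4, which raises cyclic AMP and is found on epithelial and immune cells. It was at 23.7, 21, 20.1 and 21.7 CPM in BF BSHlow non-tumor tissue and 17.9, 19.8, 18.1 and 17.3 CPM in BF BSHlow tumors, and at 29.4, 19.7, 26.5 and 25.1 CPM and 24.6, 23.9 and 21.2 CPM in BF BSHhigh mice. Levels differed little between the tissues, with a log2 fold change of -0.19 (SE 0.08, adjusted p = 0.0476 by edgeR's quasi-likelihood test), far within the fold limit. *Ptger2* encodes EP2, the other receptor that raises cyclic AMP, and was low throughout, at 0.748 to 2.86 CPM in non-tumor tissue and 1.3 to 3.32 CPM in tumors. Its log2 fold change was 0.53 (SE 0.25, adjusted p = 0.0743 by edgeR). A p that misses the threshold does not show that values did not differ.

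**Figure D2:**
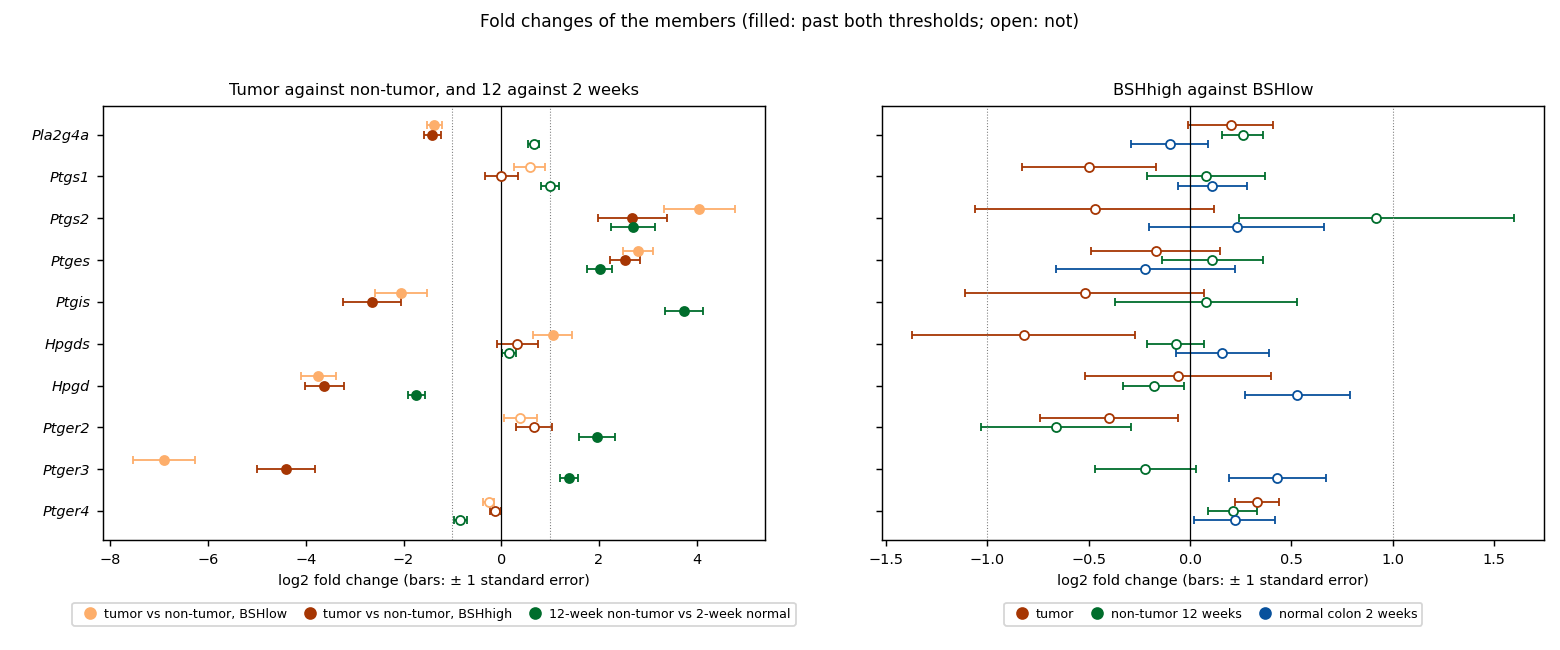
Log2 fold change of each of the 10 genes with 1 standard error to each side, for tumor against non-tumor tissue in each strain and 12-week non-tumor tissue against 2-week colon (left) and for BF BSHhigh against BF BSHlow in tumors, non-tumor tissue and 2-week colon (right). Filled points passed both thresholds, and dotted lines mark a log2 fold change of 1 in each direction. *Hpgd* lies at -3.75 and -3.62 in tumors of the 2 strains, and no point on the right is filled.

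Other genes of the pathway were counted from lists of symbols. Of 15 other synthesis genes tested, 5 were higher and 6 lower in tumors by edgeR, with a median of -0.09 (0.04 over all genes). Of the phospholipases A2, *Pla2g6* was higher (1.83, SE 0.14, adjusted p = 2.9e-08 by edgeR), while *Pla2g10* (-2.43, SE 0.14, adjusted p = 3.1e-09 by edgeR) and *Pla2g4f* (-3.74, SE 0.32, adjusted p = 9.9e-08 by edgeR) were lower. *Pla2g2a* and *Pla2g4c* were also higher and *Pla2g5* was also lower. *Pla2g2a* was at 0.341 to 16.5 CPM in non-tumor tissue and 73.3 to 165 CPM in tumors. *Pla2g10* was at 92 to 116 CPM in non-tumor tissue and 10.2 to 35.2 CPM in tumors. Of 5 genes of transport and breakdown, 2 were higher and 2 lower, with a median of -0.75. *Abcc4*, which exports prostaglandins, was at 15.9 to 25.8 CPM in non-tumor tissue and 104 to 161 CPM in tumors (2.72, SE 0.12, adjusted p = 6.6e-10 by edgeR). *Slco2a1*, which takes prostaglandins up, was at 101 to 153 CPM in non-tumor tissue and 22.9 to 54 CPM in tumors (-1.65, SE 0.18, adjusted p = 1.2e-06 by edgeR). Of the reductases that act after *Hpgd*, *Ptgr1* was higher (1.39, SE 0.14, adjusted p = 7.0e-07 by edgeR) and *Zadh2* lower (-1.53, SE 0.09, adjusted p = 5.8e-09 by edgeR). Of 4 other prostanoid receptors tested, 0 were higher and 2 lower by edgeR, *Ptgfr* (-1.64) and *Tbxa2r* (-1.41). Of 10 leukotriene and lipoxygenase genes tested, 1 was higher and 3 lower. The gene higher was *Alox12*, a lipoxygenase that acts on arachidonic acid, at 0.148 to 1.87 CPM in non-tumor tissue and 57.8 to 152 CPM in tumors (7.10, SE 0.36, adjusted p = 1.5e-09 by edgeR).

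**Figure D3:**
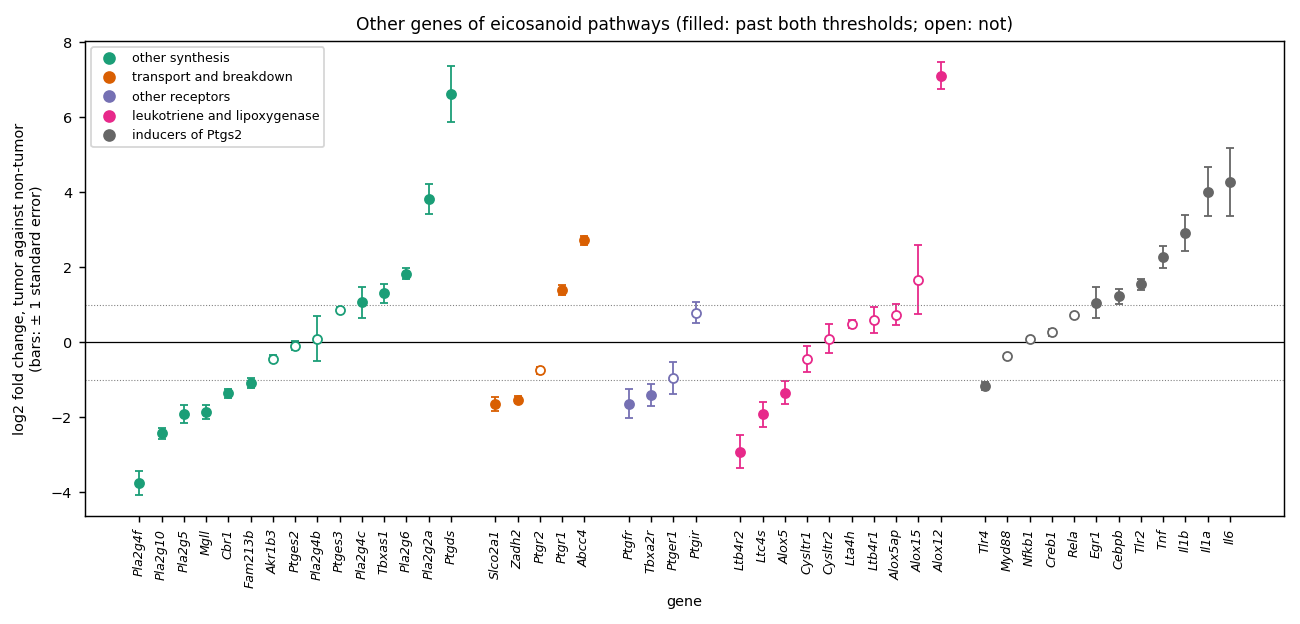
Log2 fold change with 1 standard error to each side of the genes of 5 other lists of the pathway, for tumor against non-tumor tissue with both strains averaged. *Alox12* lies at 7.10 and *Abcc4* at 2.72, while *Pla2g4f* lies at -3.74 and *Slco2a1* at -1.65.

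BF BSHhigh was compared with BF BSHlow to ask whether bile salt hydrolase of the colonizing strain bears on the pathway. In tumors, 0 of 9 genes tested were higher or lower, beside 0.463% of 15325 genes higher and 0.0131% lower (71 and 2 genes). These counts over all genes moved with single tumors, to 0 and 0 without BF BSHlow tumor 1, 3 or 4, 3 and 0 without BF BSHlow tumor 2, 6 and 0 without a, 1 and 0 without b, and 234 and 6 without c. *Ptger3* was removed there for its low counts. DESeq2 also had 0 of the 9 genes, beside 489 higher and 45 lower of all genes. At an unadjusted p under 0.05, edgeR had 1 of the 9, *Ptger4*, and 1946 of all genes. *Ptger4* was at 24.6, 23.9 and 21.2 CPM in the BF BSHhigh and 17.9, 19.8, 18.1 and 17.3 CPM in the BF BSHlow tumors. All 3 BF BSHhigh tumors lay above all 4 BF BSHlow tumors, but the difference was small (log2 fold change 0.33, SE 0.11, adjusted p = 0.229 by edgeR's quasi-likelihood test). Of 6 T cell markers and 2 B cell markers tested there, 0 were past the thresholds, with medians of 2.26 and 2.27. The summed T cell markers were at 23.2 to 34.6 CPM in BF BSHhigh and 2 to 13.7 CPM in BF BSHlow tumors. Of 10 colon epithelium and 6 goblet cell markers tested between the tumors, 2 of each list were higher and 0 lower. Their medians were 2.27 and 4.29. The part of these cells in the *Ptger4* values was not tested. For *Ptgs2* the value was -0.47 (SE 0.59, adjusted p = 0.793 by edgeR) and -1.46 without tumor c, and for *Ptges* it was -0.17 (SE 0.32, adjusted p = 0.871 by edgeR). For *Hpgd* it was -0.06 (SE 0.46, adjusted p = 0.976 by edgeR) and -0.69 without tumor a. For *Ptgs2* and *Hpgd* the difference was thus smaller than its SE. The median over the 9 genes was -0.40 and over all genes -0.03.

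In 12-week non-tumor tissue, 0 of 10 genes were higher or lower between the strains by edgeR, beside 0% of 14934 genes higher and 0% lower. DESeq2 also had 0 of the 10, beside 39 higher and 14 lower of all genes. At an unadjusted p under 0.05 there was 1 of the 10, *Pla2g4a*, and 1378 of all genes. *Pla2g4a* was at 67.2 to 78.8 CPM in BF BSHhigh and 53.4 to 67.5 CPM in BF BSHlow non-tumor tissue (log2 fold change 0.26, SE 0.10, adjusted p = 0.503 by edgeR's quasi-likelihood test, 3 of 4 libraries above all of the other strain). For *Ptgs2* the value was 0.92 (SE 0.68, adjusted p = 0.733 by edgeR), and 0.17 without the 2 non-tumor libraries that stand apart (adjusted p = 0.973 by edgeR). Without a single library it ranged from 0.16 (without BF BSHhigh replicate 1) to 1.55 (without BF BSHlow replicate 4). The median was 0.08 over the 10 genes and -0.01 over all genes.

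At 2 weeks, 0 of 8 genes tested were higher or lower between the strains by edgeR, beside 0.00727% of 13753 genes higher (1 gene) and 0% lower, and *Ptgis* and *Ptger2* were removed for low counts. Over all genes, 34 were higher and 3 lower without BF BSHlow replicate 4, 1 and 0 without BF BSHlow replicate 2, and 0 and 0 without any other library. DESeq2 also had 0 of the 8, beside 20 higher and 9 lower of all genes. At an unadjusted p under 0.05 there were 0 of the 8 and 935 of all genes. *Hpgd* was at 672, 619, 312 and 443 CPM with BF BSHlow and 729, 793, 498 and 958 CPM with BF BSHhigh. Of the BF BSHhigh libraries, 3 lay above all BF BSHlow libraries, and the fourth was among them (log2 fold change 0.53, SE 0.26, adjusted p = 0.749 by edgeR's quasi-likelihood test). The median was 0.19 over the 8 genes and 0.00 over all genes.

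Whether the strain difference itself differed between tumor and non-tumor tissue was tested with an interaction term. It called 0 of 10 genes with edgeR, beside 0.972% of 16455 genes higher and 0.00608% lower (160 genes and 1 gene). DESeq2 also called 0 of the 10, beside 378 higher and 8 lower of all genes, and limma-voom called 0 of all genes. Without a single library edgeR called 86 (without BF BSHhigh tumor a) to 334 (without tumor c) higher genes, and without the 2 non-tumor libraries that stand apart 30. At an unadjusted p under 0.05 there was 1 of the 10, *Ptger3*, and 1580 of all genes. Its tumor counts of 5, 0, 2 and 1 with BF BSHlow and 19, 10 and 2 with BF BSHhigh gave an interaction of 2.49 on the log2 scale (SE 0.86, unadjusted p = 0.0119, adjusted p = 0.296 by edgeR's quasi-likelihood test). It was 1.65 without BF BSHhigh tumor a and 3.38 without BF BSHlow tumor 1. The adjusted p was 0.054 to 0.905 over all alternatives, by edgeR, DESeq2 or limma-voom. In the 5 lists of other pathway genes, 1 gene was past the thresholds of the interaction test, *Pla2g4f* (2.87, SE 0.58, adjusted p = 0.0293 by edgeR), which fell by 5.18 in BF BSHlow tumors and by 2.30 in BF BSHhigh tumors against non-tumor tissue. Past the thresholds of the same test were 4 of 10 colon epithelium markers and 4 of 6 goblet cell markers, all in that direction, and 1 of 6 neutrophil markers, *Ly6g* (2.45, SE 0.37, adjusted p = 0.00839 by edgeR). With limma-voom the calls of *Pla2g4f* and of these markers were lost. In the direct comparison of the tumors, 2 markers of each epithelial list were higher in BF BSHhigh, among them *Slc26a3* (6.25, SE 0.98, adjusted p = 0.0481 by edgeR) and *Aqp8* (6.40, SE 0.92, adjusted p = 0.0406 by edgeR), and tumor a had the highest sum of both lists. *Ly6g* was also higher there (2.85, SE 0.35, adjusted p = 0.0343 by edgeR), at 76.7, 41.5 and 24.4 CPM in tumors a, b and c and 5.55 to 7.34 CPM in the BF BSHlow tumors. The 5 other neutrophil markers were past the thresholds in neither test, so these values describe *Ly6g* alone. The squamous epithelium marker *Tmprss11b* was lower in the BF BSHhigh tumors (-3.37, SE 0.53, adjusted p = 0.0481 by edgeR), at 0.0447 to 0.191 CPM against 0.88 to 1.47 CPM. Without BF BSHlow tumor 1, 3 or 4, edgeR called 0 genes between the tumors, so these calls were lost. Without BF BSHhigh tumor a it called 6 higher and 0 lower genes there, so the *Tmprss11b* call was lost. For the interaction it then called 86 higher genes, and whether the markers were among them is not given here. The summed T cell markers, given above, also did not overlap between the strains in tumors. Their median was 2.26 between the tumors and 2.27 for the interaction, with 0 of 6 past the thresholds in each test. The part of these markers' cells in the values of *Ptger3* and *Pla2g4f* was not tested.

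Non-tumor tissue at 12 weeks was compared with normal colon at 2 weeks, with both strains averaged. The 8 non-tumor libraries are those of the tumor comparison, so a gene that is high in them tends to appear higher here and lower in tumors. By edgeR 5 of 10 genes were higher (*Ptgs2*, *Ptges*, *Ptgis*, *Ptger2* and *Ptger3*), beside 18.5% of 15533 genes, and 1 was lower (*Hpgd*), beside 8.02% of all genes. The median was 1.18 over the 10 genes and 0.01 over all genes. Fibroblast, macrophage, smooth muscle and endothelial markers were also higher at 12 weeks, and the place sampled is not given.

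*Ptgs2* was at 0.91, 1.17, 1.04 and 1.48 CPM at 2 weeks with BF BSHlow and at 1.27, 0.737, 2.52 and 0.882 CPM with BF BSHhigh. Against the 12-week levels of 1.48 to 25.1 CPM, 7 of 8 non-tumor libraries lay above all 2-week libraries, and BF BSHlow replicate 1 lay among them. The log2 fold change was 2.69 (SE 0.45, adjusted p = 9.9e-05 by edgeR's quasi-likelihood test). *Ptges* was at 1.52, 0.834, 2.75 and 2.67 CPM with BF BSHlow and at 1.54, 1.25, 2.75 and 1.12 CPM with BF BSHhigh at 2 weeks. All 12-week libraries (5.29 to 10.4 CPM) lay above them, with a log2 fold change of 2.01 (SE 0.26, adjusted p = 6.9e-06 by edgeR). The levels of *Ptgs2* and *Ptges* thus stood in the order 2-week colon, 12-week non-tumor tissue, tumor.

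*Hpgd* stood in the opposite order. At 2 weeks it was at 312 to 672 CPM with BF BSHlow and 498 to 958 CPM with BF BSHhigh, and all 8 non-tumor libraries at 12 weeks (124 to 222 CPM) lay below (log2 fold change -1.74, SE 0.17, adjusted p = 3.8e-07 by edgeR's quasi-likelihood test). *Ptger4* was at 28.1 to 56.4 CPM at 2 weeks and 19.7 to 29.4 CPM in 12-week non-tumor tissue, with a log2 fold change of -0.84 (SE 0.13, adjusted p = 4.2e-05 by edgeR), within the fold limit. The summed colon epithelium markers were at 19354, 20799, 26871 and 16404 CPM with BF BSHlow and 17075, 18502, 14782 and 18329 CPM with BF BSHhigh at 2 weeks. *Car1* was the most abundant of them in all 2-week libraries and *Epcam* in all 12-week libraries. Of the 10 markers, 3 were lower at 12 weeks by edgeR and 0 higher, with a median of -0.24, and *Cdx2* (-4.21, SE 0.33, adjusted p = 4.5e-08 by edgeR) and *Car1* (-5.63, SE 0.49, adjusted p = 1.4e-07 by edgeR) were among them. The part of these cells in the *Hpgd* result was not tested.

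*Ptgis* was at 0.607, 0.834, 0.284 and 0.281 CPM with BF BSHlow and 0.0908, 0.663, 0.891 and 0.721 CPM with BF BSHhigh at 2 weeks. All 8 libraries at 12 weeks (2.39 to 14 CPM) lay above, a 13.3-fold difference (log2 fold change 3.73, SE 0.39, adjusted p = 9.2e-07 by edgeR's quasi-likelihood test). The 6 smooth muscle markers were all higher too, with a median of 5.42. Their summed level at 2 weeks was 52.6, 174, 49.8 and 45.3 CPM with BF BSHlow and 7.09, 149, 206 and 48.7 CPM with BF BSHhigh, and the most abundant marker was *Acta2*, *Tagln* or *Myh11*, depending on the library. None of the 6 markers was at 0 in all 2-week libraries of a strain, and their part was not tested.

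Of the receptors, *Ptger3* was at 3.11, 4, 4.26 and 3.87 CPM with BF BSHlow and 3.27, 6.48, 5.72 and 5.21 CPM with BF BSHhigh at 2 weeks. All 12-week non-tumor libraries (7.81 to 18.1 CPM) lay above, with a log2 fold change of 1.38 (SE 0.18, adjusted p = 7.2e-06 by edgeR's quasi-likelihood test), while the tumors lay below the 2-week colon, at 0 to 0.983 CPM. *Ptger2* was at 0.0758 to 0.774 CPM at 2 weeks and 0.748 to 2.86 CPM at 12 weeks (log2 fold change 1.96, SE 0.37, adjusted p = 2.8e-04 by edgeR, 7 of 8 above), near the limit of detection. *Ptgs1* was at 7.96 to 12.8 CPM at 2 weeks and 14.4 to 34.9 CPM at 12 weeks, so that all 8 lay above (0.99, SE 0.18, adjusted p = 1.8e-04 by edgeR), at the fold limit. It was past both thresholds in 10 of 16 fits without a single library (0.80 to 1.06), with DESeq2 or RLE scaling (1.01 each) and with upper-quartile scaling (1.05), and its value was 0.70 without the 2 libraries that stand apart. *Pla2g4a* was at 32 to 59.9 CPM at 2 weeks and 53.4 to 78.8 CPM at 12 weeks (0.66, SE 0.11, adjusted p = 1.2e-04 by edgeR). *Hpgds* had 0.15 (SE 0.14, adjusted p = 0.365 by edgeR).

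Among the other genes, 6 of 14 synthesis genes tested were higher and 4 lower at 12 weeks, with a median of -0.42 (0.01 over all genes). *Mgll*, the lipase that can supply arachidonic acid from an endocannabinoid, fell by 2.09 (SE 0.18, adjusted p = 1.5e-07 by edgeR), from 78.5 to 178 CPM at 2 weeks to 17.2 to 39.1 CPM. *Pla2g4f* was at 0.641 to 7.72 CPM at 2 weeks and 25.7 to 43.6 CPM at 12 weeks (3.68, SE 0.38, adjusted p = 8.6e-07 by edgeR). Of 5 transport and breakdown genes, 2 were higher and 0 lower by edgeR, *Abcc4* (1.71, SE 0.17, adjusted p = 4.0e-07 by edgeR) and *Ptgr1* (1.07, SE 0.16, adjusted p = 2.8e-05 by edgeR), with a median of 0.03. Of 4 other receptors tested 3 were higher, the thromboxane receptor *Tbxa2r* (2.97), the prostacyclin receptor *Ptgir* (2.01) and *Ptger1* (1.58), with a median of 1.80. Of 11 inducers of *Ptgs2* tested, 3 were higher and 1 lower, with a median of 0.29. *Il1b* rose by 3.83 (SE 0.61, adjusted p = 5.8e-05 by edgeR) and *Tlr2* fell by 1.85 (SE 0.24, adjusted p = 8.5e-06 by edgeR). Of 9 leukotriene and lipoxygenase genes, 1 was higher (*Cysltr1*, 1.75) and 1 lower (*Alox5*, -1.60), with a median of 0.47.

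The 2 non-tumor libraries that stand apart were left out together in further fits. The number of the 10 genes past the thresholds was then 6 for tumor against non-tumor tissue with both strains averaged, beside 2731 higher and 2886 lower of all genes. It was 6 in BF BSHlow mice (2801 and 2995 of all genes), 6 in BF BSHhigh mice (2318 and 2253) and 6 for 12 against 2 weeks (2737 and 1311). For tumor against non-tumor tissue the log2 fold changes were then 3.74 for *Ptgs2*, 2.67 for *Ptges*, -2.11 for *Ptgis*, -3.70 for *Hpgd*, -5.69 for *Ptger3* and -1.44 for *Pla2g4a*. With only replicate 4 of the BF BSHlow non-tumor tissues left out, 6 of the 10 genes were past the thresholds for tumor against non-tumor tissue, beside 2667 higher and 2997 lower of all genes. There were 6 in BF BSHlow mice (2678 and 3149 of all genes), where *Hpgds* was no longer among them, and 6 in BF BSHhigh mice (2417 and 2448). For 12 against 2 weeks there were 7 (2995 and 1324), where *Ptgs1* was added. Between the strains in non-tumor tissue edgeR called 0 of the 10 genes and 0 of all genes, and for the interaction 0 of the 10, beside 118 higher and 0 lower of all genes.

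For each gene, the 3 genes most like it were taken by Pearson's r of log2 CPM over the 23 libraries, among 14400 genes with a mean of at least 1 CPM. The libraries share 6 groups, and the differences between groups dominate these values, which are a description without a test. For *Ptgs2* they were the chemokine gene *Cxcl3* (r = 0.971), the lactate transporter gene *Slc16a3* (0.966) and *Spp1* (0.962). For *Ptges* they were *Abcc4* (0.983), the matrix protease gene *Mmp14* (0.98) and *Prkar1a* (0.98). For *Hpgd* they were *Fahd1*, *Ubl3* and *Gal3st1*, each with 0.986. For *Ptgis* all 3 were genes of contractile cells, *Actg2* (0.95), *Myl9* (0.945) and *Tagln* (0.935). For *Ptger3* they were *Pyroxd2* (0.98), *Gstm2* (0.979) and *Ankrd44* (0.975), and for *Ptger4* they were *Ptp4a1* (0.964), *Edn3* (0.932) and *B3gnt6* (0.917). For *Pla2g4a* the values were 0.951 for *Rab15*, 0.945 for *Pnmal2* and 0.942 for *Gpr20*, and for *Ptger2* they were 0.938 for *Mxra8*, 0.927 for *Antxr1* and 0.926 for *Mxra7*. *Ptgs1* was most like *Slco3a1* (0.921), *Grb14* (0.89) and *Rilpl1* (0.889). The lowest values were those of *Hpgds*, with 0.808 for *Smyd3*, 0.775 for *Rev3l* and 0.764 for *Cep85*.

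**Figure D4:**
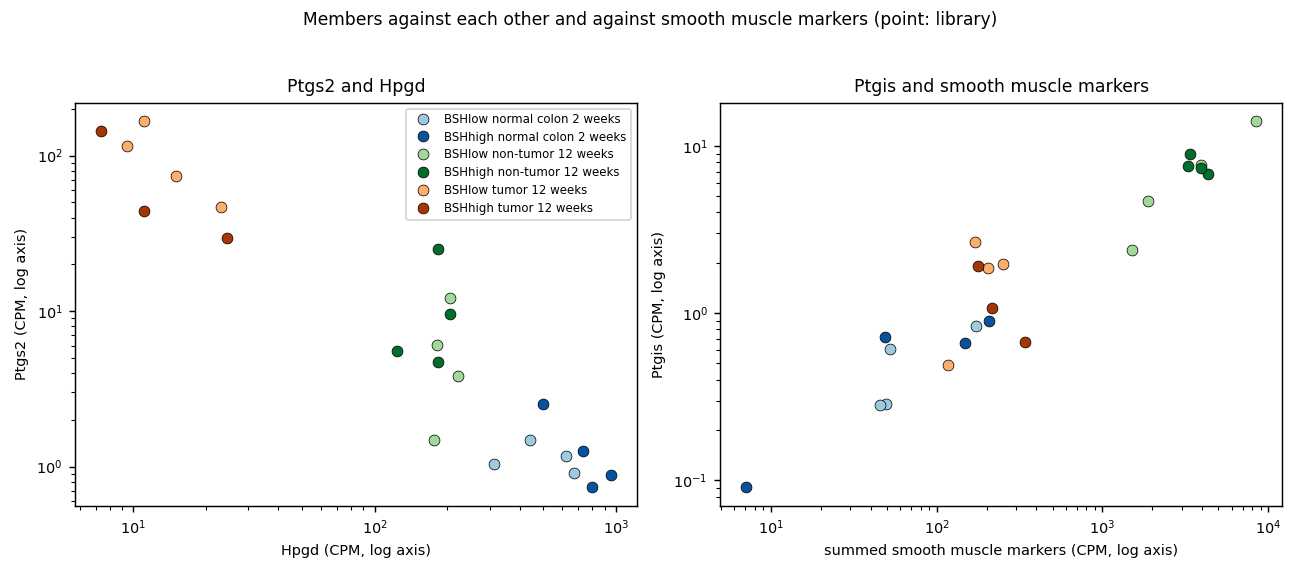
Level of *Ptgs2* against *Hpgd* (left) and of *Ptgis* against the summed level of 6 smooth muscle markers (right) in the 23 libraries, in CPM on log axes, by group. The 7 tumors lie at 29.7 to 166 CPM of *Ptgs2* with 7.34 to 24.5 CPM of *Hpgd*, and the 8 libraries of 2-week colon at 0.737 to 2.52 CPM of *Ptgs2* with 312 to 958 CPM of *Hpgd*.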

How the data were processed

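RNA-seq of 23 mouse colon libraries was analysed. Per the labels and methods, the authors used Cutadapt for trimming, STAR for alignment to mm10, Picard for mapping statistics and RSEM for quantification, and deposited its expected counts per gene without normalization; versions are not given in the sources used here. The labels name a stranded total RNA kit and colonization 2 times a week, while the methods name a stranded mRNA kit and gavage every 3 days. Of the values, 4.24% are not whole, and those of the 10 genes are whole in every library. The table also held 1 blank line, and *Fgf6* has a text cell; both were dropped. All 55449 gene identifiers matched GENCODE M21, and 26837 genes had 0 counts in all libraries. Total counts per library were 12401388 to 17903008 (median 15874872). In 33 pairs of replicates, chi-square per degree of freedom was 16.6 to 126 over genes with at least 20 counts, so no pair was a library deposited again. That does not tell separate animals from separate preparations of the same RNA.

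After rounding of the expected counts to whole numbers, edgeR 4.0.16 in R 4.3.3 gave the quasi-likelihood tests (filterByExpr, TMM scaling, Benjamini-Hochberg adjustment over all genes tested). Tumor against non-tumor tissue and the interaction used the 15 libraries of 12 weeks, the strain comparisons only the groups compared, and 12 against 2 weeks the 16 libraries without tumor. The standard error was the size of the log2 fold change divided by the square root of F. Levels are CPM with a common TMM scaling, and log2 CPM for likeness had a prior count of 2. Exact Poisson intervals and overlaps were computed in Python 3.11.15 with pandas 2.3.3, numpy 2.4.6 and scipy 1.17.1, and figures were drawn with matplotlib 3.10.9.

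Named are all 10 genes, from each of 19 other lists (5 of the pathway, 1 of WNT targets, 13 of cell type markers) at most the 4 genes with the smallest adjusted p per comparison, and for each of the 10 the 3 genes most like it. Other genes (*Epcam*, *Il1b* in tumors, the genes that complete a count or lead a sum) were chosen after their values were seen. The 10 genes and the lists were chosen with earlier results of these data known, and 2 symbols of the lists are not in the table. The inducers of *Ptgs2* include *Il1b*, *Tnf*, *Tlr2* and *Tlr4*. Alternatives were DESeq2 1.42.0, limma-voom (limma 3.58.1), RLE and upper-quartile scaling, no filter, CPM over 1 in 3 libraries, 1 fit of all libraries, the adjusted p alone, a block for replicate number and fits without each library in turn. Before use, these tests were tested on simulated data. Protein, bile acid and other data of the study were not analysed here.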

Additional observations from a re-analysis of the deposited data

Results flagged for a closer look

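In each group of 4 libraries, the gap between the highest or lowest library and the nearest other, divided by the range of the group on the log2 scale, was compared with Dixon's limit of 0.829. Of 120 groups of gene or list levels tested, 7 passed it, and chance alone marks about 1 in 20 groups. Among the 10 genes, *Ptgis* in the 2-week BF BSHhigh colon had 0.836, because replicate 1 was at 0.0908 CPM and the others were at 0.663 to 0.891 CPM. In replicate 1 of the BF BSHhigh non-tumor tissues, the summed neutrophil markers were at 382 CPM and the others at 225 to 239 CPM (0.882), and the summed colon epithelium markers were at 5137 CPM and the others at 4393 to 4509 CPM (0.833). In the BF BSHlow non-tumor tissues, replicate 4 had 40.1 CPM of mast cell markers and the others 64.9 to 66.5 CPM (0.954), and replicate 1 had 1.48 CPM of squamous epithelium markers and the others 2.29 to 2.39 CPM (0.915). In BF BSHlow tumors, replicate 3 had 240 CPM of tuft cell markers and the others 164 to 175 CPM (0.834). In the 2-week BF BSHlow colon, replicate 2 had 174 CPM of smooth muscle markers and the others 45.3 to 52.6 CPM (0.89).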

How the results depend on the processing

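Of 25 results in which 1 of the 10 genes was past both thresholds, 0 of 620 values under the alternatives changed direction, and 9 missed a threshold (8 for *Hpgds* in BF BSHlow tumors and 1 for *Ptgs2* in BF BSHhigh tumors). The number of the 10 genes past both thresholds was 6 for tumor against non-tumor tissue under each alternative with both thresholds, 6 or 7 in BF BSHlow, 5 or 6 in BF BSHhigh, 6 or 7 for 12 against 2 weeks and 0 for the strains and the interaction. With the adjusted p alone it was 8, 7, 6 and 9. Over all 77 results and 1698 values, 21 changed direction, 9 missed and 18 newly passed a threshold, and 1650 did neither. Of the 18, 14 were *Ptgs1* for 12 against 2 weeks, 1 of them with the adjusted p alone. The values that changed direction were all from fits without a single library and belong to log2 fold changes past no threshold. Their ranges were -0.25 to 0.62 for *Hpgds* in BF BSHhigh tumors against non-tumor tissue; -0.68 to 0.07 for *Ptges* and -0.69 to 0.27 for *Hpgd* between strains in tumors; -0.07 to 0.49 for *Ptgs1*, -0.07 to 0.25 for *Ptges*, -0.21 to 0.64 for *Ptgis*, -0.16 to 0.02 for *Hpgds* and -0.39 to 0.01 for *Ptger3* between strains in non-tumor tissue. At 2 weeks they were -0.34 to 0.01 for *Pla2g4a*, -0.27 to 0.43 for *Ptgs2* and -0.02 to 0.28 for *Hpgds*, and for the interaction -0.20 to 0.08 for *Pla2g4a* and -0.48 to 0.47 for *Hpgd*. The cause was not tested. Counts over all genes moved more. Between strains in tumors, edgeR's 71 higher and 2 lower genes were 489 and 45 with DESeq2, 40 and 1 with limma-voom, 308 and 12 without a filter, 566 and 12 in 1 fit of all libraries, and 0 to 234 and 0 to 6 without a single library; 1 was lower with upper-quartile scaling and 6 with the adjusted p alone. In non-tumor tissue 0 and 0 became 39 and 14 with DESeq2 (73.6% higher), and at 2 weeks 1 and 0 became 20 and 9 with DESeq2 (69% higher), 4 and 1 without a filter, and 0 to 34 and 0 to 3 without a single library. In 1 fit of all libraries 1 was lower in each. For the interaction 160 and 1 became 378 and 8 with DESeq2, 0 and 0 with limma-voom, 260 and 3 in 1 fit of all libraries, 86 to 334 and 0 to 5 without a single library, and 30 and 0 without the 2 libraries that stand apart; 2 were lower with the adjusted p alone. The adjusted p alone gave 6133 higher and 5748 lower genes for tumor tissue (5486 and 5299 in BF BSHlow, 4832 and 4481 in BF BSHhigh) and 5119 and 4690 for 12 weeks. With other scalings or DESeq2 the median of all genes was -0.02 to 0.08 for tumor against non-tumor tissue (0.04 with TMM) and 0.02 to 0.06 for 12 weeks (0.01 with TMM). The labels number replicates in each group but do not say whether samples with the same number share an animal. The deviations of same-numbered samples had r of 0.18, -0.11, 0.01 and 0.12 for BF BSHlow non-tumor tissue and tumor. For the strains they had r of -0.11, -0.18, 0.19 and -0.16 in non-tumor tissue and 0.05, -0.15, 0.33 and -0.12 at 2 weeks. Of 12 samples, 4 correlated best with their own number. These values, from 4 samples per group, cannot decide whether the samples are paired. With the replicate block, 6 of the 10 genes passed both thresholds in BF BSHlow tumors (7 in the same 8 libraries without it), as did 2377 and 2632 of all genes (2443 and 2672 without it), and *Hpgds* had 0.89 (adjusted p = 0.146 by edgeR); between strains it gave 1 higher gene in non-tumor tissue, 1 lower gene at 2 weeks and 0 of the 10 genes. The fits without 2 libraries and of 8 libraries without a block were chosen after seeing the data. Depth limits *Ptger3* in tumors and *Ptger2* and *Ptgis* at 2 weeks, where single libraries hold few counts.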

Other observations

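Other cell type markers and the WNT targets differed between the tissues by edgeR's quasi-likelihood test. In tumors, all 5 B cell markers were lower, with a median log2 fold change of -5.43, and their summed level was 10.3 to 301 CPM in non-tumor tissue and 0.41 to 11.1 CPM in tumors. Of 6 T cell markers, 2 were lower and 0 higher with both strains averaged (median -0.24), but the strains differed in direction. In BF BSHlow mice 2 were lower and 0 higher (median -1.25), and in BF BSHhigh mice 0 were lower and 1 higher (*Cd3g*, median 0.65). The interaction test called 0 of the 6, with a median of 2.27. Of 7 macrophage markers 1 was higher (*Cd68*, 1.07, SE 0.20, adjusted p = 2.5e-04 by edgeR), with a median of 0.77. Of 5 endothelial markers 2 were higher (*Cdh5*, 2.27 and *Vwf*, 1.39). Of 6 fibroblast markers, 3 were higher and 1 lower in tumors, among them *Pdgfra* (1.88, SE 0.15, adjusted p = 7.3e-08 by edgeR). Of 6 tuft cell markers tested, *Avil* was higher (5.14, SE 0.27, adjusted p = 1.9e-09 by edgeR) and 2 were lower, *Dclk1* (-1.47) and *Trpm5* (-2.29). Of 4 mesothelial markers tested, *Msln* was higher (1.85) and 2 were lower, and *Upk3b*, *Lrrn4* and *Wt1* were under 1 CPM in all tumors. All 4 squamous epithelium markers tested were higher, with a median of 5.18, as for *Krt4* (7.68, SE 0.49, adjusted p = 7.8e-09 by edgeR), while *Krt5* and *Trp63* were under 1 CPM in every library. All 8 WNT targets were higher, with a median of 5.89, as for *Nkd1* (5.45, SE 0.29, adjusted p = 2.0e-09 by edgeR).

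In 12-week non-tumor tissue against 2-week colon, all tested macrophage (7), endothelial (5), fibroblast (6) and B cell (5) markers were higher, with medians of 2.87, 1.86, 3.39 and 2.98. The summed fibroblast markers were at 47.7 to 230 CPM at 2 weeks and 314 to 3260 CPM at 12 weeks, and the macrophage markers at 16.5 to 52.6 and 67.7 to 261 CPM. Of 7 tuft cell markers tested, 5 were lower at 12 weeks and 0 higher by edgeR (median -1.78), among them *Trpm5* (-2.61, SE 0.21, adjusted p = 5.2e-08 by edgeR). All 4 neutrophil markers tested and 4 of 7 mast cell markers were higher, as were 3 of 4 mesothelial markers, 2 of 6 T cell markers and 1 of 6 goblet cell markers, while 1 mast cell marker, 3 T cell markers and 1 goblet cell marker were lower. Of the WNT targets tested, 1 of 6 was higher, *Nkd1* (2.41, SE 0.25, adjusted p = 7.9e-07 by edgeR). The secreted phospholipase *Pla2g2a* was at 0 to 3.71 CPM at 2 weeks, 0.341 to 16.5 CPM in 12-week non-tumor tissue and 73.3 to 165 CPM in tumors (tumor against non-tumor tissue 3.82, SE 0.40, adjusted p = 8.2e-07 by edgeR), and was named after its values were seen.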
